A study of Mus musculus with 6 samples.

Results

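The genes described are 39 cell cycle and kinetochore genes, a list of names matched by GENCODE M21 symbol to the 55385 genes of a mouse liver count table. All 39 were found and all 39 passed the filter on low counts, which kept 14454 genes. They comprise 4 genes of cell cycle entry, 10 of DNA replication and 25 of mitosis. Poly(A) RNA was sequenced from the livers of 3 mice after vertical sleeve gastrectomy (VSG, in which surgeons cut away the outer part of the stomach and leave a narrow tube) and of 3 mice after a sham operation. All 6 were wild-type C57BL/6 males, 6 to 8 weeks old at the start by the labels. They were fed a high-fat diet (HFD) for 10 weeks before the operation and for 12 weeks after it, the sham controls included. Each library was made from about 40 mg of liver of 1 animal. No other operation, diet or genotype entered the comparison, which asks which liver genes differ after VSG.

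A cell that divides first makes D- and E-type cyclins and E2F factors, then loads the MCM helicase on its DNA and copies it, and then builds a spindle whose microtubules hold each chromosome at its kinetochore. The outer kinetochore grips microtubules through the Ndc80 complex, a rod in which a dimer of Ndc80 and Nuf2 binds the microtubule and a dimer of Spc24 and Spc25 joins it to the inner kinetochore. Hepatocytes of the adult liver rarely divide, while blood cell precursors and macrophages can, and most mitotic genes are transcribed mainly in dividing cells.

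Total counts ran from 22804397 to 24191778 per library, and levels are given as CPM, counts scaled to a common library size after TMM (a factor that balances library composition). A count of 3 corresponded to 0.111 to 0.143 CPM. The 7 hepatocyte markers found in the table, albumin among them, summed to 44943 to 97629 CPM in every library, as the liver label says. The VSG libraries were unlike each other in blood cell genes. The 8 late neutrophil markers summed to 1638, 127 and 713 CPM in VSG 4, 5 and 6, against 14.2, 2.6 and 4.86 CPM in sham 1, 2 and 3. For the cell cycle and kinetochore genes described, calls that were lost or gained without 1 library are named with that library. For other genes of the same pathways, those gained without VSG 5 are given only as a count. Calls of marker genes are given with all libraries only.

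The 39 genes did not move as 1 group. Only 3 of them, Spc24, Spc25 and the cyclin gene Ccnd1, passed the test (adjusted p under 0.05, written as called below), each lower after VSG. That is 3 of 39, where 14.7% of all tested genes were called in either direction and 7.87% were called lower. None of the 39 was called higher by edgeR's quasi-likelihood test with Benjamini-Hochberg adjustment, by DESeq2 or by either limma test, against 6.79% of all tested genes called higher by edgeR. At an unadjusted p under 0.05, 0 of the 39 were higher in edgeR and 1, Top2a, in DESeq2. The fold changes were nonetheless mostly positive, with 26 above and 13 below 0. Their median was 0.50 on the log2 scale, against 0.03 over all tested genes. It was 0.17 in limma-voom, with 21 positive, and 0.097 in limma on log2(FPKM + 1), with 22 positive. In edgeR it was -0.27 without VSG 4, with 15 positive, and 0.97 without VSG 5, with 29 positive. No overlap between the groups was seen in 5 members, Spc24, Spc25, Ccnd1, E2f1 and Pcna, all with VSG lower, while 39.7% of tested genes separated, 19.8% in that direction and 19.8% in the other. When libraries were scaled by their total counts alone, the median of all tested genes moved to -0.11 and that of the members to 0.32. The split of all calls then moved from 981 higher and 1137 lower to 486 higher and 1512 lower. With limma on log2(FPKM + 1), which also left out the TMM factors, it was 407 higher and 1530 lower. The same 3 members were called under total counts.

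**Figure D1:**
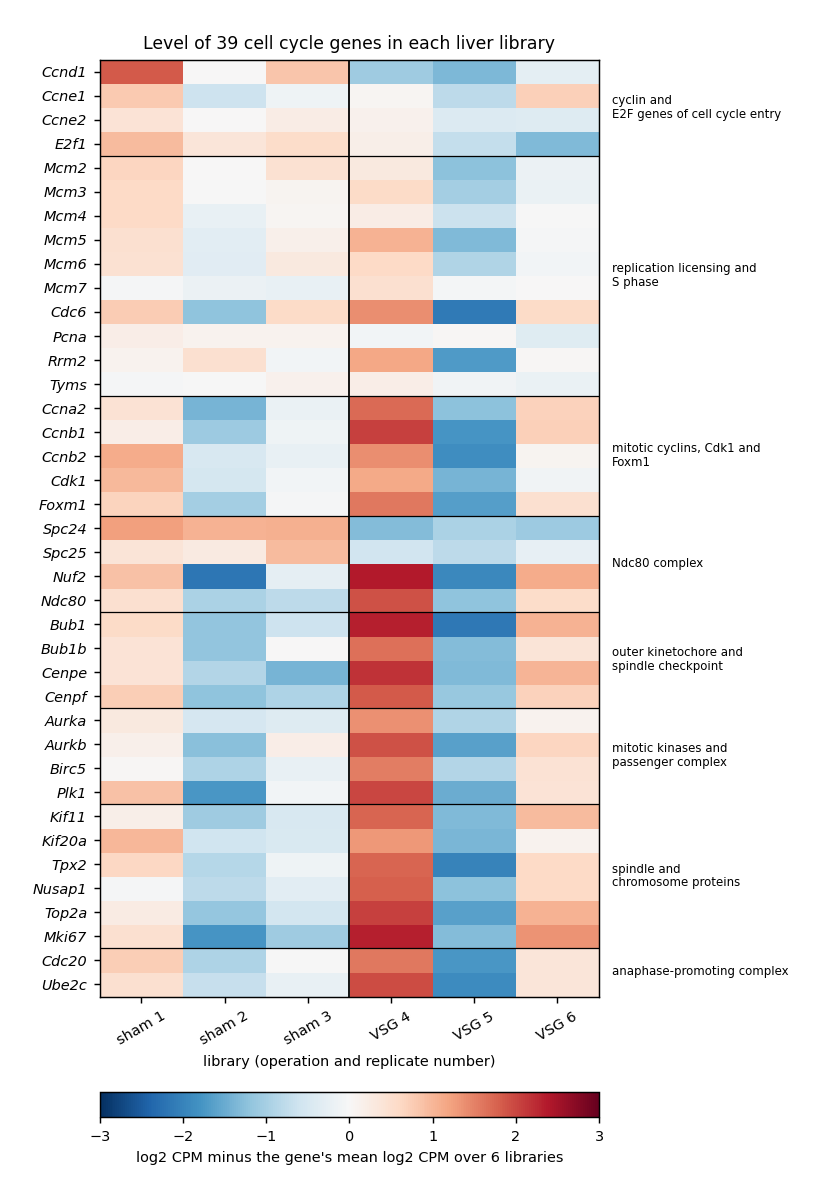
Level of each of the 39 genes (rows, grouped by role) in each of the 6 libraries (columns), as log2 CPM minus the gene's own mean over the 6 libraries. Spc24 and Spc25 are above their mean in the 3 sham livers and below it in the 3 VSG livers, while the other 23 mitotic genes are highest in VSG 4, and 16 of them are lowest in VSG 5.

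**Figure D2:**
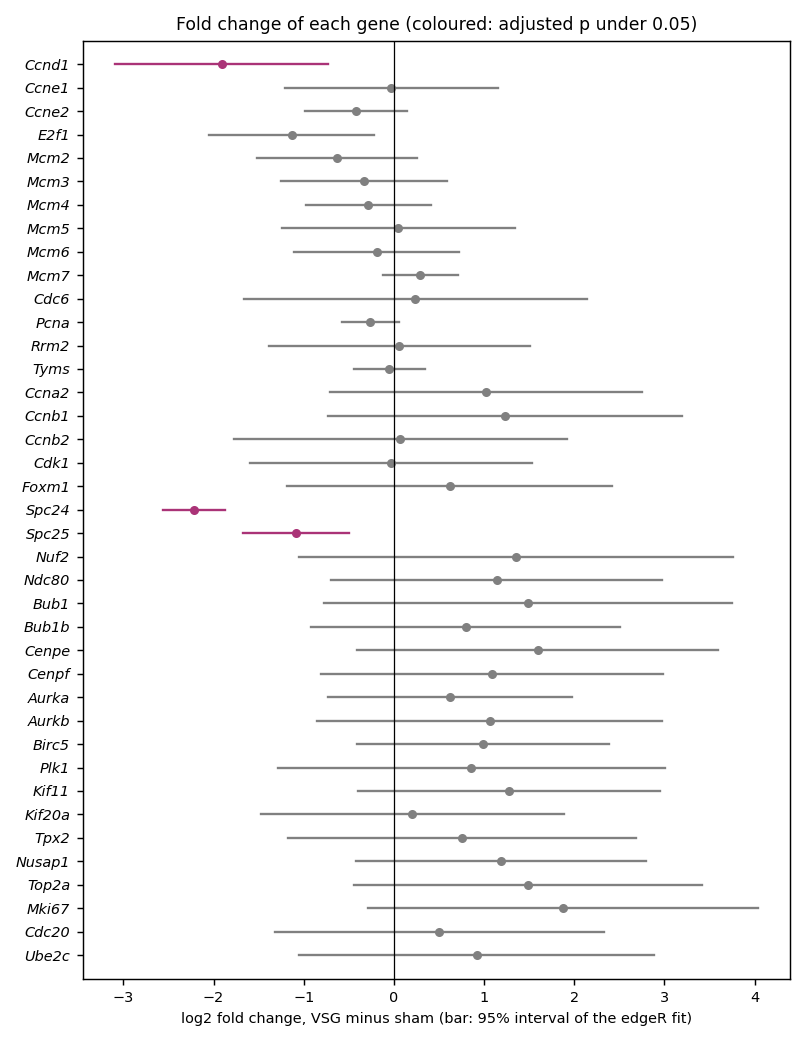
Log2 fold change of each gene, VSG minus sham, with the 95% interval of the edgeR fit (bars). The 3 coloured genes (Ccnd1, Spc24 and Spc25) had an adjusted p under 0.05, and the intervals of the mitotic genes other than Spc24 and Spc25 all include 0.

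Within the Ndc80 complex, the RNAs of the Spc24 and Spc25 dimer were lower in every VSG liver than in any sham liver, and those of the Ndc80 and Nuf2 dimer were not. Spc24 (ENSMUSG00000074476.6, chr9:21755442-21760303 of GRCm38, minus strand) encodes a globular subunit at the end of the rod that faces the inner kinetochore. It was read 428, 307 and 370 times in sham 1, 2 and 3 and 61, 82 and 66 times in VSG 4, 5 and 6, or 15.8, 14.0 and 14.1 CPM against 2.76, 3.51 and 3.15 CPM. The sham values lay close together and the VSG values lay close together, far below, with no overlap. Sham livers averaged 14.6 ± 1.02 CPM and VSG livers 3.14 ± 0.373 CPM (SD, n = 3 each), a log2 fold change of -2.22 (SE 0.15, 95% interval -2.57 to -1.87, adjusted p = 0.00177, edgeR). In bulk liver, fewer cells that express a gene and less of its RNA per cell cannot be told apart.

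Spc25 (ENSMUSG00000005233.16, chr2:69193895-69206194, minus strand), the direct partner of Spc24, was at 5.69, 5.21 and 8.32 CPM in the sham and 2.9, 2.52 and 3.63 CPM in the VSG livers. Sham 3 was the highest library and all 3 VSG livers were below all 3 sham livers. The difference was smaller and less certain than that of Spc24 (log2 fold change -1.09 with an SE of 0.25, adjusted p = 0.0337), and its call was lost when any 1 of the 6 libraries was left out, with log2 fold changes of -1.24 to -0.86 and adjusted p of 0.0564 to 0.123. The call of Spc24 held without each library.

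Nuf2 (ENSMUSG00000026683.14, chr1:169497934-169531464, minus strand), which contacts the microtubule, was at 1.51, 0.183 and 0.684 CPM in the sham and 4.25, 0.214 and 1.76 CPM in the VSG livers. These were few reads, 41, 4 and 18 in sham and 94, 5 and 37 in VSG livers, with VSG 4 highest, VSG 5 near the lowest and the groups overlapping (log2 fold change 1.36 with an SE of 1.01, adjusted p = 0.375). Its partner Ndc80 (ENSMUSG00000024056.10, chr17:71496100-71526857, minus strand), which gives the complex its name, was at 1.11, 0.411 and 0.456 CPM in the sham and 2.94, 0.342 and 1.14 CPM in the VSG livers. VSG 4 was again highest and VSG 5 lowest, and the groups overlapped (log2 fold change 1.14 with an SE of 0.77, adjusted p = 0.33). Neither change passed the test, and the 95% intervals, -1.05 to 3.76 for Nuf2 and -0.69 to 2.98 for Ndc80, span both directions.

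The ratio of Spc24 to Spc25 counts was 2.78, 2.69 and 1.69 in the sham and 0.953, 1.39 and 0.868 in the VSG livers. Every VSG ratio was below every sham ratio, and the mean log2 ratio differed by -1.15 (exact two-sided permutation test, p = 0.1, the smallest p that 3 against 3 allows). The ratio of Spc24 to Ndc80 counts was 14.3, 34.1 and 30.8 in the sham and 0.938, 10.3 and 2.75 in the VSG livers. Those groups did not overlap either, and the mean log2 ratio differed by -3.05 (exact permutation test, p = 0.1). These ratios rest on few Ndc80 reads, 30, 9 and 12 in sham 1, 2 and 3 and 65, 8 and 24 in VSG 4, 5 and 6. The ratio of Spc24 to Nuf2 was 10.4, 76.7 and 20.6 in sham against 0.649, 16.4 and 1.78 in VSG livers, where VSG 5 lay above sham 1 (difference of the mean log2 ratios -3.25, exact permutation test, p = 0.2). The 6 ratios among the 4 subunits were tested, and 5 of them had a Benjamini-Hochberg adjusted p of 0.24 from the exact permutation tests and 1, Nuf2 to Ndc80, a p of 0.6. An exact permutation test of 3 against 3 cannot pass 0.05, and no other test of the ratios was run.

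**Figure D3:**
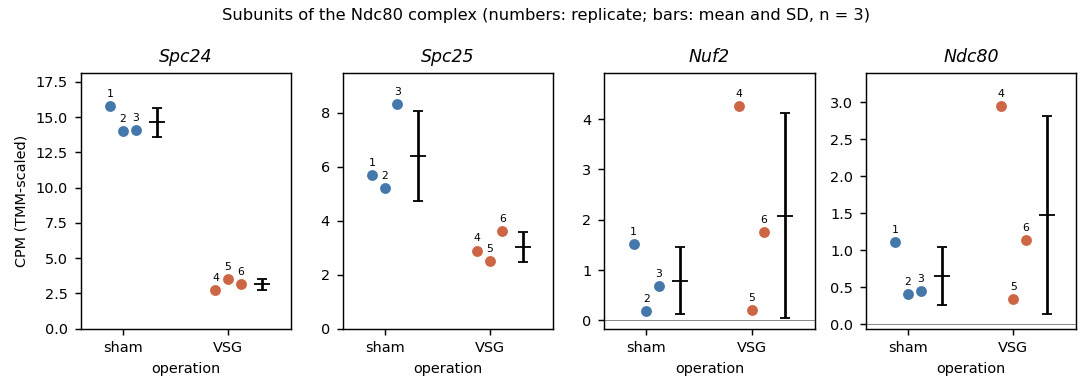
CPM of the 4 subunits of the Ndc80 complex in each library (points, numbered by replicate) with the mean and SD of each group (n = 3). The 3 VSG livers lie below the 3 sham livers for Spc24 and Spc25, whereas for Nuf2 and Ndc80 the groups overlap and VSG 4 stands highest.

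The start regions of these genes were compared for elements known from cell cycle genes. Promoter sequences of RefSeq (GRCm38.p6, 250 bases before to 50 after the gene's start) were available for 30 of the 39 genes, and not for Aurkb, Ccna2, Ccnd1, Ccne2, Foxm1, Kif20a, Mcm4, Spc24 and Tpx2. Spc25, Nuf2 and Ndc80 are shown because they are the partners against which Spc24 is set, 1 of them lower after VSG and the other two not called. Capitals mark TTTGAA, the core of the cell cycle genes homology region (CHR) bound by the DREAM and MuvB complexes, and CCAAT, the box bound by NF-Y, each on either strand (reverse complements TTCAAA and ATTGG), and neither motif overlaps the other here. The windows are chr2:69206164-69206463, chr1:169531415-169531714 and chr17:71526808-71527107, all on the minus strand and written 5′ to 3′ along the gene.
Spc25: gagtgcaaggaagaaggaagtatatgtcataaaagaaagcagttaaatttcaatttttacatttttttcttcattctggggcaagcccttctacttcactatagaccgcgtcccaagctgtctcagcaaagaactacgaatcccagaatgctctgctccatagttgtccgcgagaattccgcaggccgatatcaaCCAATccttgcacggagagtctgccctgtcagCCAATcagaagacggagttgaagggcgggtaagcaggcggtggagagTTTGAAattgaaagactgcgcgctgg
Nuf2: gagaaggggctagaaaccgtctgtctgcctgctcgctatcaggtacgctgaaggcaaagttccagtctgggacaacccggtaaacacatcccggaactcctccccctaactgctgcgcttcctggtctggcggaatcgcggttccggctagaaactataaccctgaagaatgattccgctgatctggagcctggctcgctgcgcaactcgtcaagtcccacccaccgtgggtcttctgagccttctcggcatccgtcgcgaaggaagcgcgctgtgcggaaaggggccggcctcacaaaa
Ndc80: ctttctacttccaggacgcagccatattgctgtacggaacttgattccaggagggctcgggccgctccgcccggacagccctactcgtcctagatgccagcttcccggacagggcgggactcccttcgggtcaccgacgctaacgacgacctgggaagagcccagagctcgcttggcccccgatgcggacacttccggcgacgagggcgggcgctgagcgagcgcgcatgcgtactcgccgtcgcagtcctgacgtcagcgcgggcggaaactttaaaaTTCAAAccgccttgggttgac
Spc25 held 1 CHR core and 2 CCAAT boxes, Ndc80 held 1 CHR core and no CCAAT box, and Nuf2 held neither. A match is a description of the letters in the window, not a bound site.

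Among the genes of cell cycle entry, Ccnd1 was lower after VSG. Ccnd1 (ENSMUSG00000070348.5, chr7:144929931-144939925, minus strand) encodes cyclin D1, which activates CDK4 and CDK6 in response to growth signals. It was at 172, 48.1 and 84.8 CPM in the sham and 22.9, 18.9 and 39.3 CPM in the VSG livers. Sham 1 was far above the other sham livers, and all VSG livers lay below the lowest sham liver. The fold change was -1.91 on the log2 scale (SE 0.50, 95% interval -3.09 to -0.73, adjusted p = 0.0478), just inside the threshold. The call held without sham 2 and was lost without each of the other 5 libraries (log2 fold changes of -2.28 to -1.31, adjusted p of 0.0792 to 0.129) and in both limma tests (adjusted p = 0.0554 and 0.0555). LTO1, a gene on the opposite strand with 201 to 394 counts per library, shares 1100 exon bases with Ccnd1, which had 442 to 4644 counts, and whether counting used strand was not given in the sources used here.

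E2f1 encodes a factor that switches on replication genes. It was at 5.98, 3.97 and 4.56 CPM in the sham and 3.48, 1.88 and 1.24 CPM in the VSG livers. The groups did not overlap, with VSG 6 lowest, but the change missed the threshold in edgeR (log2 fold change -1.13 with an SE of 0.39, adjusted p = 0.092). DESeq2 called it (log2 fold change -1.15, adjusted p = 0.0302), and so did edgeR without VSG 4 (log2 fold change -1.63, adjusted p = 0.0362). Ccne1 and Ccne2 encode the E-type cyclins that fire replication with CDK2. Ccne1 was at 2.55, 0.959 and 1.37 CPM in the sham and 1.54, 0.855 and 2.43 CPM in the VSG livers. Ccne2 was at 3.47, 2.6 and 3.04 CPM in the sham and 2.85, 1.97 and 2.0 CPM in the VSG livers. Both pairs of groups overlapped, and the log2 fold change was -0.03 for Ccne1 (adjusted p = 0.974) and -0.42 for Ccne2 (adjusted p = 0.252). In all 4 entry genes sham 1 was the highest of the 6 libraries.

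None of the 10 replication genes passed the test in edgeR or had an unadjusted p under 0.05 there, and DESeq2 and both limma tests called none (median log2 fold change -0.12, range -0.63 to 0.29, adjusted p 0.220 to 0.959). Mcm2 to Mcm7 encode the subunits of the ring that unwinds DNA. Mcm2 was at 11.3, 7.31 and 9.99 CPM in the sham and 8.91, 3.12 and 6.49 CPM in the VSG livers. Mcm5 was at 7.46, 4.25 and 5.89 CPM in the sham and 10.9, 2.14 and 5.15 CPM in the VSG livers. VSG 5 was the lowest library for both, and the groups overlapped. Their log2 fold changes were -0.63 (SE 0.37) and 0.05 (SE 0.54), the latter turning to -0.12 under total-count scaling and to -0.69 without VSG 4. Mcm3 was at 12.7, 8.41 and 8.89 CPM in the sham and 12.4, 4.15 and 7.3 CPM in the VSG livers. Mcm4 was at 14.0, 7.9 and 9.54 CPM in the sham and 10.8, 5.86 and 9.21 CPM in the VSG livers, and Mcm6 at 14.0, 8.09 and 12.6 CPM in the sham and 15.4, 5.43 and 9.59 CPM in the VSG livers. VSG 5 was the lowest library for these 3 as well, with log2 fold changes of -0.33, -0.28 and -0.19 (SE 0.39, 0.29 and 0.38). Mcm7 varied less, at 9.79, 8.86 and 8.55 CPM in the sham and 13.8, 9.49 and 9.97 CPM in the VSG livers, with VSG 4 highest and a log2 fold change of 0.29 (SE 0.18).

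Cdc6, which loads the ring, was at 1.26, 0.32 and 1.1 CPM in the sham and 1.95, 0.171 and 1.1 CPM in the VSG livers, with VSG 4 highest and VSG 5 lowest (log2 fold change 0.24 with an SE of 0.80, adjusted p = 0.853). Rrm2, the subunit of ribonucleotide reductase that is made for S phase, was at 5.39, 6.99 and 4.71 CPM in the sham and 11.1, 1.54 and 5.15 CPM in the VSG livers, and its log2 fold change of 0.06 (SE 0.61) turned to -0.068 under total-count scaling. Both genes spread widely among the VSG livers and overlapped the sham livers. Pcna, the sliding clamp of the polymerases, was at 12.5, 11.7 and 11.7 CPM in the sham and 10.4, 11.1 and 8.54 CPM in the VSG livers. The groups just failed to meet, with a log2 fold change of -0.26 (SE 0.13, adjusted p = 0.22). Tyms, which makes thymidylate, was at 5.1, 5.16 and 5.62 CPM in the sham and 5.97, 4.83 and 4.53 CPM in the VSG livers, and the 95% interval of its log2 fold change ran from -0.45 to 0.34.

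The 23 mitotic genes other than Spc24 and Spc25 differed more between the VSG livers than between the groups. VSG 4 was the highest of the 6 libraries in 23 of 23, and VSG 6 lay between VSG 4 and VSG 5 in 23 of 23. VSG 5 was the lowest of the 6 libraries in 16. VSG 4 exceeded VSG 5 by 4.84 to 22.2 times (median 9.53), against a median of 1.0 over all tested genes. Among the sham livers, sham 1 was highest and sham 2 lowest in 22 of 23 each. Over all 39 genes VSG 4 was highest in 29, VSG 5 lowest in 27 and the VSG libraries in the order 4, 6, 5 in 32, where 26.5%, 13.8% and 24.9% of all tested genes did so. VSG 4 was at least 2 times VSG 5 in 29 of the 39, against 9.64% of all tested genes, while sham 1 was highest and sham 2 lowest of the sham livers in 35 each, against 34.9% and 36.5%. None of the 23 was called by edgeR, where none had an unadjusted p under 0.05, and none by DESeq2 or either limma test, although 22 of the 23 fold changes were positive (median 1.02, adjusted p 0.195 to 0.975). The median was 0.62 in limma-voom and 0.20 in limma on log2(FPKM + 1), with 20 of 23 positive in each. That FPKM scale understates changes of low genes and used total counts without TMM factors. In edgeR with total counts alone the median was 0.82.

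Ccna2, Ccnb1 and Ccnb2 encode the A- and B-type cyclins that drive entry into mitosis with the kinase Cdk1, and Foxm1 the factor that transcribes many mitotic genes. Ccna2 was at 5.35, 1.51 and 3.5 CPM in the sham and 12.9, 1.71 and 6.49 CPM in the VSG livers. Ccnb1 was at 0.665, 0.274 and 0.532 CPM in the sham and 2.4, 0.171 and 0.954 CPM in the VSG livers. In both, VSG 4 and VSG 6 were above all sham livers and VSG 5 was within or below them (log2 fold changes 1.02 and 1.23, SE 0.73 and 0.83). Cdk1 was at 4.39, 1.55 and 2.13 CPM in the sham and 4.98, 0.855 and 2.1 CPM in the VSG livers, so that sham 1 nearly reached VSG 4 (log2 fold change -0.03 with an SE of 0.66, adjusted p = 0.975). Ccnb2 was similar, at 4.03, 1.32 and 1.6 CPM in the sham and 4.89, 0.513 and 1.96 CPM in the VSG livers. Its log2 fold change of 0.07 turned to -0.11 under total-count scaling and to -0.92 without VSG 4. Foxm1 was at 2.77, 0.868 and 1.71 CPM in the sham and 5.29, 0.556 and 2.43 CPM in the VSG livers (log2 fold change 0.62, SE 0.76), with VSG 4 highest and VSG 5 lowest.

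The outer kinetochore genes Bub1, Bub1b, Cenpe and Cenpf encode a checkpoint kinase, its relative BubR1, a kinesin that moves chromosomes and a large coat protein. Bub1 was at 1.4, 0.411 and 0.608 CPM in the sham and 4.75, 0.214 and 1.96 CPM in the VSG livers. VSG 4 exceeded VSG 5 by 22.2 times, the widest ratio of the 39 genes, and the groups overlapped (log2 fold change 1.49 with an SE of 0.95, adjusted p = 0.305). Cenpe was at 2.14, 0.868 and 0.608 CPM in the sham and 7.15, 0.641 and 3.24 CPM in the VSG livers (log2 fold change 1.59, SE 0.84). Cenpf was at 2.66, 0.685 and 0.836 CPM in the sham and 5.7, 0.727 and 2.58 CPM in the VSG livers (log2 fold change 1.09, SE 0.80). Bub1b was at 3.21, 1.05 and 2.43 CPM in the sham and 7.6, 0.983 and 3.15 CPM in the VSG livers (log2 fold change 0.80, SE 0.72). All 4 were highest in VSG 4 and next in this group in VSG 6, and in none did the groups separate.

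Aurkb and Birc5 encode the kinase and the survivin subunit of the chromosomal passenger complex, Aurka a kinase of the spindle poles and Plk1 a kinase of many mitotic steps. Aurkb was at 1.33, 0.503 and 1.37 CPM in the sham and 4.52, 0.385 and 1.86 CPM in the VSG livers, with VSG 4 and VSG 6 above all sham livers and VSG 5 below them. Plk1 was at 1.99, 0.32 and 1.03 CPM in the sham and 4.34, 0.385 and 1.43 CPM in the VSG livers. Birc5 was at 2.33, 1.19 and 1.94 CPM in the sham and 6.61, 1.24 and 3.05 CPM in the VSG livers, and Aurka at 2.07, 1.19 and 1.29 CPM in the sham and 4.34, 0.898 and 1.81 CPM in the VSG livers. VSG 4 stood highest and VSG 5 within or below the sham range in each of the 4. Their log2 fold changes ran from 0.63 to 1.06 with adjusted p of 0.274 to 0.526. Cdc20, the activator of the anaphase-promoting complex, was at 2.14, 0.685 and 1.29 CPM in the sham and 3.85, 0.385 and 1.67 CPM in the VSG livers. Ube2c, its ubiquitin-conjugating enzyme, was at 1.96, 0.868 and 1.22 CPM in the sham and 5.52, 0.385 and 1.81 CPM in the VSG livers. Both were highest in VSG 4 and lowest in VSG 5, and neither passed the test (log2 fold changes 0.50 and 0.92, SE 0.77 and 0.83).

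Mki67 and Top2a, the 2 mitotic genes with the most reads, showed the same pattern at higher counts. Mki67, which encodes the proliferation marker Ki-67 that coats mitotic chromosomes, was at 15.3, 3.24 and 5.24 CPM in the sham and 55.3, 4.45 and 28.0 CPM in the VSG livers. VSG 4 and VSG 6 were above all sham livers, while VSG 5, with 104 reads, was below sham 1 and sham 3 (log2 fold change 1.88 with an SE of 0.91, adjusted p = 0.195). Top2a, the topoisomerase that untangles sister chromatids, was at 10.3, 3.84 and 5.85 CPM in the sham and 35.7, 2.78 and 17.6 CPM in the VSG livers, with VSG 5 the lowest library (log2 fold change 1.48 with an SE of 0.81, adjusted p = 0.241). Kif11, a motor that pushes spindle poles apart, was at 3.77, 1.6 and 2.39 CPM in the sham and 11.1, 1.33 and 6.49 CPM in the VSG livers. Nusap1, a spindle-binding protein, was at 1.85, 1.1 and 1.52 CPM in the sham and 6.56, 0.812 and 2.86 CPM in the VSG livers. VSG 5 was the lowest library for both, and their log2 fold changes were 1.28 (SE 0.70) and 1.19 (SE 0.68). Tpx2, an activator of Aurora A, was at 3.69, 1.32 and 2.17 CPM in the sham and 8.05, 0.598 and 3.58 CPM in the VSG livers (log2 fold change 0.76, SE 0.81). Kif20a, a motor of cytokinesis, was at 5.06, 1.69 and 1.86 CPM in the sham and 6.29, 0.983 and 2.72 CPM in the VSG livers (log2 fold change 0.21, SE 0.70), with sham 1 well above the other sham livers. Kif20a shares 1271 exon bases with Cdc23 on the opposite strand (310 to 414 counts per library), Ccne2 shares 609 with Ints8 (430 to 599 counts) and Ccna2 shares 510 with Exosc9 (278 to 402 counts). Without a known strand setting, the counts of these members are uncertain, as are those of Mcm7, Plk1, Nusap1, Cdc20 and Ube2c, which also overlap genes on the opposite strand. The overlapping genes had at most 1 count per library for Plk1 and 2 for Ube2c. For Mcm7, Nusap1 and Cdc20 they had 9 to 1870.

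The windows of Cdk1, which holds all 3 kinds of element, and of Mki67, the mitotic gene with the most reads, are shown as examples, and E2F sites (TTTCCCGC, TTTCGCGC, TTTGCCGC or TTTGGCGC, on either strand) are in capitals beside the CHR cores and CCAAT boxes. They lie at chr10:69352863-69353162 and chr7:135716330-135716629 (GRCm38.p6, RefSeq, both minus strand).
Cdk1: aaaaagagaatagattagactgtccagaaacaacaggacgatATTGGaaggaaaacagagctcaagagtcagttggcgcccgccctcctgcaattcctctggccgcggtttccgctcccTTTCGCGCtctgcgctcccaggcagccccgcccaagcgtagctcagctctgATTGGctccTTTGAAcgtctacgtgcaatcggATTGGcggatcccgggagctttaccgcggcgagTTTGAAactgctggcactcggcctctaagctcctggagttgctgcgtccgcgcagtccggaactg
Mki67: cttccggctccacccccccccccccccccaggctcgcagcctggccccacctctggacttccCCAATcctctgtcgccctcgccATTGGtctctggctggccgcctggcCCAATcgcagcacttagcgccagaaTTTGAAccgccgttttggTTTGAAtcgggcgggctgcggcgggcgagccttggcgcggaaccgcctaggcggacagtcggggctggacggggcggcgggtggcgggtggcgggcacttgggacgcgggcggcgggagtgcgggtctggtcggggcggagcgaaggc
Cdk1 held 2 CHR cores, 3 CCAAT boxes and 1 E2F site, and Mki67 held 2 CHR cores, 3 CCAAT boxes and no E2F site. A CHR core was found in 13 of the 19 mitotic genes with an entry (68.4%), in 1 of 9 replication genes (11.1%), in 14.9% of the 10788 tested genes with an entry and in 17.9% of all 32851 promoters. E2F sites were found in 5 of the 9 replication genes (55.6%), in 1 of the 19 mitotic genes (5.26%), in 4.43% of tested genes and in 2.26% of all promoters. CCAAT boxes were found in 15 of 19 mitotic and 7 of 9 replication genes, in 42.7% of tested genes and in 37.4% of all promoters. The genes were chosen as cell cycle genes, so these shares describe the list and its composition.

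Summed over the 23 mitotic genes, the level was 80.9, 26.7 and 42.2 CPM in sham 1, 2 and 3 and 215, 21.5 and 101 CPM in VSG 4, 5 and 6. Within the VSG group, the sums of 6 marker lists took the same order, 4, 6, 5, as this sum: neutrophil precursor, late neutrophil, macrophage, cholangiocyte, T and NK cell, and B and plasma cell. The hepatocyte, erythroid, early progenitor, megakaryocyte, endothelial and stellate cell sums did not. Of all tested genes, 24.9% took that order. The 6 neutrophil precursor markers summed to 278, 34.9 and 172 CPM in the VSG livers and to 10.6, 10.4 and 8.97 CPM in sham 1, 2 and 3, an order the mitotic sum did not take, and 4 of the 6 were called higher and 1, Cebpe, lower. In the sham livers Cebpe made up most of this sum, at 9.42, 10.1 and 8.7 CPM, and was at 7.29, 5.86 and 6.15 CPM in the VSG livers. The other 5 (Mpo, Elane, Prtn3, Ctsg and Ms4a3) were each at 0.554 CPM or less in every sham liver, and Ms4a3 had no read in any of them. All 8 late neutrophil markers were called higher, and their sums took the order sham 1, 3, 2 and VSG 4, 6, 5, as the mitotic sum did. The 8 macrophage markers, of which 4 were called higher, summed to 760, 370 and 540 CPM in the sham livers and 2255, 771 and 1445 CPM in VSG livers. Against the sham livers the order did not hold, since VSG 5 had the lowest mitotic sum of the 6 libraries and yet more neutrophil precursor and late neutrophil signal than any sham liver. Myb, 1 of the 5 early blood cell progenitor markers, was named after its values were seen. It was at 0.259, 0.137 and 0.304 CPM in the sham and 8.87, 0.513 and 6.34 CPM in the VSG livers. The sum of the 5 markers did not take this order, 4, 6, 5. The 10 erythroid markers summed to 66.9 to 81.9 CPM in the sham livers and 65.7 to 88.5 CPM in VSG livers, and VSG 4 was the lowest library, unlike in the mitotic sum. The 6 sinusoidal endothelial markers lay between 267 and 350 CPM in all libraries. The 5 early progenitor markers, Myb included, summed to 14.6, 11.6 and 15.4 CPM in the sham livers and 31.9, 22.5 and 22.2 CPM in VSG livers, so that VSG 6, not VSG 5, was lowest of its group. The 9 B and plasma cell markers summed to 5.62 to 7.35 CPM in the sham livers and 31.6, 27.1 and 29.9 CPM in VSG 4, 5 and 6, and the 9 T and NK cell markers to 7.35 to 8.21 CPM and 13.5, 7.48 and 8.78 CPM. The 4 megakaryocyte markers summed to 3.29 to 4.28 CPM and 5.04 to 12.7 CPM, and the 6 cholangiocyte markers to 161 ± 98.6 CPM and 139 ± 63.3 CPM (mean ± SD, n = 3), with VSG 4 at 2.72 times VSG 5. What part these cells had in the levels of the mitotic genes was not tested.

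**Figure D4:**
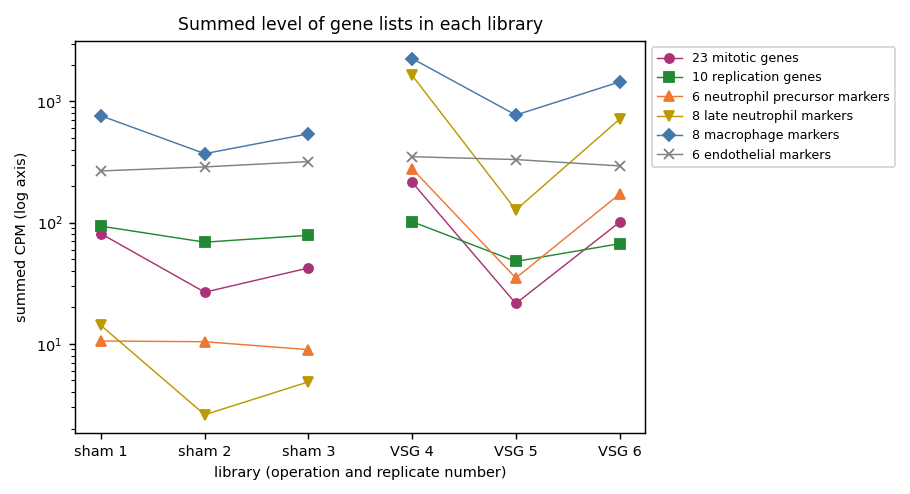
Summed CPM (log axis) of the 23 mitotic genes, the 10 replication genes and 4 lists of cell type markers in each library; lines only join the libraries of a group. The mitotic sum and the sums of the neutrophil and macrophage markers are all highest in VSG 4 and lowest, within the VSG group, in VSG 5, and VSG 5 is below every sham liver in the mitotic sum but above every sham liver in the neutrophil sums. The endothelial sum stays between 267 and 350 CPM.

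None of Spc24, Spc25 and Ccnd1 took the order 4, 6, 5 in the VSG livers. In the sham livers Ccnd1 took the mitotic order 1, 3, 2 (172, 48.1 and 84.8 CPM in sham 1, 2 and 3). Spc24 took it too, by a small margin (15.8, 14.0 and 14.1 CPM), and Spc25 did not. VSG 4 was 0.787 times VSG 5 for Spc24, 1.15 times for Spc25 and 1.21 times for Ccnd1. The 7 stellate cell markers summed lower in the VSG livers too, to 877, 605 and 920 CPM in the sham livers and 294, 569 and 343 CPM in VSG livers, with 1 of 7, Reln, called lower. Within the VSG group the stellate sum was highest in VSG 5 and lowest in VSG 4, as was Spc24, while Spc25 and Ccnd1 were lowest in VSG 5. The hepatocyte sum (44943, 70569 and 68756 CPM in VSG 4, 5 and 6) and the erythroid sum (65.7, 88.5 and 86.0 CPM) took that order too. The part of these cells in the lower Spc24, Spc25 and Ccnd1 was not tested.

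Leaving out VSG 4 or VSG 5 moved the mitotic genes in opposite ways. The median log2 fold change of the 23 was 1.02 with all libraries, 0.15 without VSG 4, with 13 of 23 positive, and 1.46 without VSG 5, with 23 of 23 positive. Without VSG 4 the median over all 39 genes, entry and replication genes included, was -0.27, with 15 of 39 positive, and the called members were Spc24 and E2f1, both lower. Without VSG 5 it was 0.97, with 29 positive, and Mki67, Top2a, Kif11 and Nusap1 were called higher (log2 fold changes 2.36, 1.97, 1.73 and 1.63, adjusted p = 0.0497, 0.0341, 0.0340 and 0.0429, edgeR), beside Spc24 called lower. In VSG 5 the 4 genes were within or below the sham range. Spc24 was the 1 member called under each of the 14 alternatives.

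**Figure D5:**
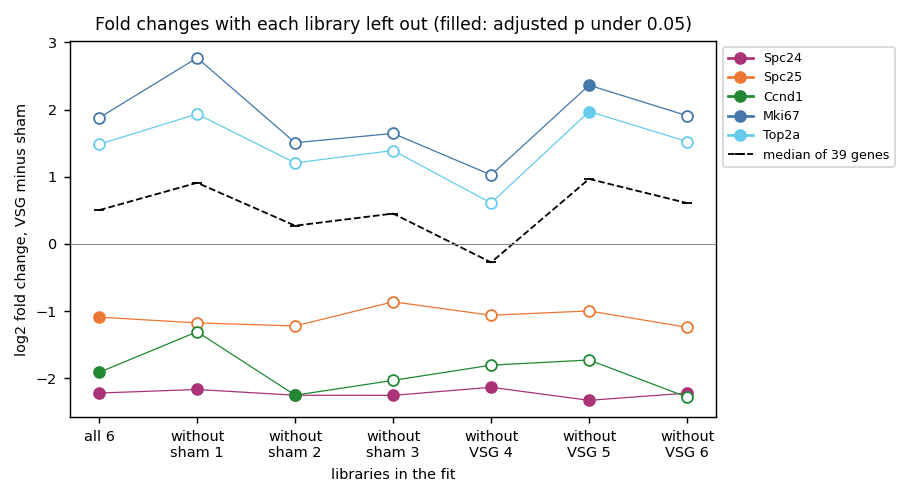
Log2 fold change of 5 genes, and the median of the 39 (dashed), with all 6 libraries and with each library left out (filled points have an adjusted p under 0.05). Spc24 stays between -2.33 and -2.13 and filled throughout, while the median ranges from -0.27 without VSG 4 to 0.97 without VSG 5.

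Levels of different genes were compared per exon length, as FPKM (counts per kilobase of exon, scaled to library size as CPM is). Averaged over the 6 libraries, Ccnd1 (13.6 FPKM), Pcna (4.58 FPKM) and Spc24 (3.45 FPKM) were the highest of the 39 genes, and 23 of them were under 1 FPKM. This order pools the groups. In sham livers Spc24 (5.69 FPKM) was above Pcna (4.99 FPKM), while in VSG livers Spc24 (1.22 FPKM) was below Pcna (4.17 FPKM), Mki67 (2.91 FPKM) and several replication genes. The subunits of the Ndc80 complex were thus not at equal levels. In sham livers Spc24 was at 5.69 ± 0.396 FPKM, Spc25 at 2.01 ± 0.526, Nuf2 at 0.13 ± 0.106 and Ndc80 at 0.101 ± 0.0601 FPKM (mean ± SD, n = 3). In VSG livers they were at 1.22 ± 0.145, 0.946 ± 0.176, 0.328 ± 0.321 and 0.227 ± 0.205 FPKM. Spc24 lay above Spc25, and Spc25 above the other two, in sham livers by more than their SDs, while Nuf2 and Ndc80 did not differ beyond theirs. In VSG livers the ranges of 1 SD around Spc24 and Spc25 overlapped.

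Other genes of the same pathways gave 6 calls with all 6 libraries, each lower after VSG, among 134 genes tested. That is 4.48%, against 14.7% of all tested genes called and 7.87% called lower, and these calls depended on which libraries were in the fit. Of 32 further kinetochore and centromere genes 31 were tested, and 2 were called. Zwint, which ties the checkpoint to the kinetochore, was at 60.0, 73.6 and 73.6 CPM in the sham and 44.1, 48.4 and 48.2 CPM in the VSG livers (log2 fold change -0.56 with an SE of 0.11, adjusted p = 0.0255). Pmf1, a subunit of the Mis12 complex on which the Ndc80 complex docks, was at 10.6, 12.9 and 11.5 CPM in the sham and 7.92, 8.12 and 7.92 CPM in the VSG livers (log2 fold change -0.55 with an SE of 0.12, adjusted p = 0.0331). In both the VSG livers lay close together below all sham livers. The list had a median log2 fold change of 0.17.

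Of 40 further mitosis genes 38 were tested and 1 was called, Pttg1 (securin, the guard of sister chromatid separation), at 20.3, 23.6 and 19.1 CPM in the sham and 12.2, 15.6 and 13.7 CPM in the VSG livers (log2 fold change -0.60 with an SE of 0.14, adjusted p = 0.0342). In this list VSG 4 was the highest library for 33 of 38 genes and the median log2 fold change was 0.62, none called higher and none higher at an unadjusted p under 0.05. Of 36 further replication genes 35 were tested and 1 was called, Gins4, a subunit of the helicase activator GINS, at 12.2, 15.9 and 14.7 CPM in the sham and 8.64, 10.3 and 8.44 CPM in the VSG livers (log2 fold change -0.64 with an SE of 0.15, adjusted p = 0.0362). For both genes the groups did not overlap.

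Of 32 CDK inhibitors, pocket proteins and other cyclins and E2F factors 30 were tested and 2 were called. Wee1, the kinase that holds Cdk1 inactive, was at 29.0, 34.9 and 35.5 CPM in the sham and 2.49, 10.2 and 5.49 CPM in the VSG livers. All VSG livers were far below the sham livers, with VSG 4 lowest (log2 fold change -2.45 with an SE of 0.45, adjusted p = 0.0207). Ccnd2, which encodes cyclin D2, was at 22.7, 17.4 and 23.3 CPM in the sham and 15.3, 14.0 and 14.4 CPM in the VSG livers (log2 fold change -0.54 with an SE of 0.14, adjusted p = 0.0457), again without overlap, and its call was lost in both limma tests and under total counts. In these 4 lists edgeR called 6 genes, 0 higher and 6 lower, and DESeq2 14, 4 higher and 10 lower. The 6 calls were all lost without sham 3 and without VSG 6, where edgeR called 0 genes of the lists. Without sham 2 Ccnd2 was the 1 of the 6 still called, beside E2f8 called higher, and without VSG 4 Wee1 was, beside Cdkn1a called lower. Without sham 1 the calls of Pttg1 and Ccnd2 were lost. Without VSG 5 that of Ccnd2 was lost and 12 genes were called, 6 higher and 6 lower.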

How the data were processed

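Liver RNA of 3 sham and 3 VSG mice was sequenced as strand-specific poly(A) libraries. Per gene, the authors deposited raw counts of reads. Per the submitters' processing notes, the authors used FastQC 0.10.1, STAR 2.6.0, mm10 and featureCounts 2.0.3. Which annotation release and strand setting were used, and how multi-mapping or shared reads were handled, was not given in the sources used here. Groups came from the sample titles. Of 55385 genes, 54487 matched GENCODE M21 in identifier, version, start and end, and 55144 without the version.

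The test was edgeR 4.0.16, run under R 4.3.3 (filterByExpr with minimum count 10 and minimum total 15, TMM factors 0.897 to 1.15, quasi-likelihood fit with group as the only term). Adjusted p-values are Benjamini-Hochberg over the 14454 genes tested, with the threshold 0.05. The standard error is the log2 fold change over the square root of F. FPKM used the exon lengths of the deposited table, with TMM factors for the levels and with total counts alone in the limma fit. Replicates were separate animals, and their counts differed by more than counting noise (chi-square per degree of freedom 25.2 to 193). Floors cover counting error only. The fits were tested on simulated data. Alternatives were DESeq2 1.42.0, limma 3.58.1 (voom, and log2(FPKM + 1)), RLE size factors, total counts, other filters, prior count 2 and leaving out each library.

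The 39 members, the pathway and marker lists and the motifs were chosen with earlier results of these data known. Named genes are the 39 members, up to 3 called genes of each pathway list with the largest changes, and markers beside the results they move with. Myb, Reln, Cebpe, Ms4a3, Mpo, Ctsg, Elane, Prtn3, E2f8 and Cdkn1a were named after their values were seen. Of 265 listed genes, 264 were found by symbol. Promoters and their coordinates are RefSeq's (GRCm38.p6), and a gene with several entries was taken to hold a motif when any entry did.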

Additional observations from a re-analysis of the deposited data

How the results depend on the processing

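No paired analysis was run, since the sham and VSG livers came from separate animals and the labels give no pairing. Of 537 member results over 14 alternatives, 479 kept their direction and their side of the threshold, 13 lost a call, 6 gained one and 39, in 16 genes, changed sign. None of those 39 was called in either fit, and the cause of the changes was not tested. Spc24 kept its call under all 14. A filter of at least 10 counts in every library left 30 members, with a median log2 fold change of 0.07. Nuf2 and Ndc80 had 4 to 9 reads in sham 2 and VSG 5.

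DESeq2 called 3288 genes in all and 14 pathway genes, against 2118 and 6 in edgeR. When 1 library was left out, the calls ranged from 159 (without sham 3) to 2732 (without VSG 5) over all genes, from 1 to 5 among the members and from 0 (without sham 3 or VSG 6) to 12 (without VSG 5, 6 higher and 6 lower) among the pathway genes. The members called were Spc24 alone without sham 1, sham 3 or VSG 6, Spc24 and Ccnd1 without sham 2, Spc24 and E2f1 without VSG 4, and 5 without VSG 5. The members' median ranged from -0.27 to 0.97.

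The changes of sign, as log2 fold changes, were as follows. In limma-voom they were Mcm5 -0.25, Cdc6 -0.15, Rrm2 -0.34, Ccnb2 -0.31 and Kif20a -0.020. On log2(FPKM + 1) they were Mcm5 -0.14, Rrm2 -0.20, Ccnb2 -0.13 and Kif20a -0.0055. Under total counts they were Mcm5 -0.12, Rrm2 -0.068 and Ccnb2 -0.11. With 1 library left out in turn, the lowest and highest values of the genes that changed sign were Ccne1 -0.45 to 0.45, Cdk1 -0.88 to 0.51, Mcm5 -0.69 to 0.43, Cdc6 -0.53 to 0.72, Ccnb2 -0.92 to 0.73, Kif20a -0.65 to 0.90, Rrm2 -0.77 to 0.50, Foxm1 -0.27 to 1.08, Bub1b -0.13 to 1.23, Aurka -0.17 to 0.99, Plk1 -0.32 to 1.57, Tpx2 -0.21 to 1.25, Cdc20 -0.44 to 0.97, Ube2c -0.31 to 1.41, Mcm6 -0.63 to 0.087 and Tyms -0.18 to 0.029. The sign changed without VSG 4 in 13 of these 16 genes.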
